A study of Mus musculus with 12 samples.

Results

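The respiratory chain members described here are the nuclear genes for complexes I to V of the inner mitochondrial membrane. They were chosen by symbol: protein-coding genes whose names begin with Nduf followed by a, b, c, s or v, with Cox4 to Cox8, Uqcr, Uqcc, Atp5 or Sdha to Sdhd, plus Pet100, without Ndufa4l2 and the Ndufaf genes. The rule took 93 of the 54532 gene rows of the count table, for 92 symbols, and used no measured value. The members were 36 genes of complex I, 8 of complex II, 11 of complex III, 20 of complex IV (with Ndufa4) and 18 of complex V. Of these, 83 encode subunits and 10 encode assembly or associated factors (Sdhaf1 to Sdhaf4, Uqcc1 to Uqcc3, Pet100, Cox7a2l and Atp5s), whose symbols match the same pattern.

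Cultured mouse keratinocytes, the main cells of the epidermis, carried a doxycycline-inducible fusion of desmoplakin residues 1 to 584 with the biotin ligase BirA, labelled WT DP-BirA(1-584). Desmoplakin anchors intermediate filaments at desmosomes, so the fusion places the ligase at the cell cortex. All cells received 2 µg/mL doxycycline and, per the labels, 1.2 µM calcium at confluence, and all were pulsed with biotin for 16 h after being wounded or left unwounded. The translating part of a sucrose gradient was passed over neutravidin. RNA bound to the resin is the cortical fraction, and RNA of the depleted remainder is the total fraction, so the total fraction is not a whole-cell sample. With 3 libraries in each, the 4 groups were the total and the cortical fraction of unwounded cells and the total and the cortical fraction of wounded cells. The labels call the 3 libraries of a group biological replicates but do not say what separated them.

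Complexes I and II pass electrons from NADH and succinate to ubiquinone, complex III passes them to cytochrome c, complex IV passes them to oxygen, and complex V makes ATP from the proton gradient. A few subunits of complexes I, III, IV and V are encoded in mitochondrial DNA, while all others are made from nuclear mRNAs on cytosolic ribosomes, often near the mitochondrial surface, and imported. Several of the catalytic subunits have long coding sequences, whereas most accessory subunits are small proteins with short mRNAs. Many of the short genes have processed pseudogenes elsewhere in the genome, so their counts depend on how shared reads were assigned.

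The shortness of these messages can be seen in whole coding sequences, taken from GENCODE M21 transcripts and printed 5′ to 3′ with the start and stop codons in capitals. They are shown because 20 of the 22 tested members with at most 300 coding bases were lower in the cortical fraction of wounded cells. Of all tested genes, 8.03% were lower there. Atp5mpl and Cox7c each kept that call in only 7 of the 12 omissions of a library (adjusted p up to 0.0882). Uqcr11, on chromosome 10, encodes the smallest subunit of complex III in 171 bases.
Uqcr11: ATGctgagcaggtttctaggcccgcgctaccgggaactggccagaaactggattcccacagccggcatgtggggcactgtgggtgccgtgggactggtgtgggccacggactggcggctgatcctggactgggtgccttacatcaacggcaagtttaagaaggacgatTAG
Atp5mpl, on chromosome 12, encodes a small proteolipid associated with ATP synthase in 177 bases.
Atp5mpl: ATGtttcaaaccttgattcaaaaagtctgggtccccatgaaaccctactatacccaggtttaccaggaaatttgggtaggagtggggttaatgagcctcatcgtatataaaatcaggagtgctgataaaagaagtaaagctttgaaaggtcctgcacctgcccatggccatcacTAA
Cox7c, on chromosome 13, encodes a subunit of complex IV in 192 bases.
Cox7c: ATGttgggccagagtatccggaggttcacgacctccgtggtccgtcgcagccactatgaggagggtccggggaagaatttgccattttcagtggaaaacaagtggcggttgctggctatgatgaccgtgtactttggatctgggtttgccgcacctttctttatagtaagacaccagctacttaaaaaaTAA
Atp5k, on chromosome 5, encodes subunit e of ATP synthase, which takes part in joining ATP synthase into dimers, in 216 bases.
Atp5k: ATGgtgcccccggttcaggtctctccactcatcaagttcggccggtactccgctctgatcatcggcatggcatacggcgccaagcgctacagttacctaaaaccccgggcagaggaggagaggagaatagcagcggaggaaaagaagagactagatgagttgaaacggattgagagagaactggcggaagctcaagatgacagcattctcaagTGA
By contrast, the coding sequences of Ndufs1 and Sdha run to 2184 and 1995 bases. The 86 tested members had a median coding length of 412.5 bases, against 1371 bases over the 11478 tested genes with a coding length. Among them, 22 members had at most 300 coding bases, 42 had 301 to 600, 11 had 601 to 1000 and 11 had more than 1000. The median GC content of the coding sequence was 52.9% in the tested members and 53.0% in all tested genes with a coding length.

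Library totals ran from 8980013 to 23457548 counts. Wounded total replicate 1 stood apart, with 13117 genes with counts against 14393 to 16867 in the other 11 libraries, so the member counts and the main values that rest on it are also given without it. Of the markers checked, all 10 keratinocyte genes had counts, and their FPKM (fragments per kilobase of exon, scaled for library size, on the authors' merged exon length) summed to between 4629 and 9687 per library. The fibroblast, melanocyte, immune and muscle lists summed to at most 1.44 FPKM in any library, and Dcn, Thy1, Tyr, Tyrp1, Cd207, Lyz2 and H2-Aa had 0 counts in all libraries. The summed keratinocyte level was 4629 to 5308 FPKM in the unwounded total, 6839 to 6914 in the unwounded cortical, 7818 to 9605 in the wounded total and 9471 to 9687 in the wounded cortical libraries. Of these 10 genes, 6 were higher and 1 lower in the cortical than in the total fraction of unwounded cells, and 2 were higher and 1 lower in wounded cells. On wounding, 4 were higher and 1 lower in the total fraction, and 2 higher and 0 lower in the cortical fraction. The part of these differences in the results below was not tested. The p-values below measure the spread between these libraries, which may be in part technical.

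Most members were abundant messages. In the unwounded total group the mean level of the 86 tested members ran from 1.28 to 2671 FPKM with a median of 192, and 59 of them exceeded 100 FPKM. The highest were 3 subunits of complex IV: Cox8a at 2671 ± 473 FPKM (SD, n = 3), Cox6a1 at 2170 ± 319 and Cox6b1 at 1301 ± 209. The libraries of Cox8a (2373 to 3216) and Cox6a1 (1952 to 2537) overlapped. Atp5b, the catalytic beta subunit of ATP synthase, was at 446 ± 35.8 FPKM, and Ndufs1, the largest subunit of complex I, at 5.08. The authors' length merges all exons and exceeded the length of the chosen transcript by more than 2 fold in 30 tested members, so FPKM understates those genes.

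The isoforms that other tissues use were close to absent. Cox8b, Cox8c and Cox7b2 had 0 counts in all 12 libraries, as had a second gene row named Atp5o on chromosome 16. Cox4i2 had 3 counts in all, Cox6b2 had 4 and Cox6a2 had 45. These 7 rows did not pass the filter on low counts. Cox7a1, the heart and muscle isoform of a complex IV subunit, passed with only 184 counts over the 12 libraries and is left out of the plots. The forms expressed here were the widely expressed ones, such as Cox4i1, Cox6a1, Cox6b1, Cox7a2 and Cox8a.

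Levels between libraries are compared below as CPM, counts scaled to a library size that TMM factors correct for composition. The members together took 30316, 37444 and 31054 CPM in the unwounded total libraries and 25073, 24947 and 24629 in the unwounded cortical ones. They took 29958, 45799 and 50479 CPM in the wounded total libraries and 27571, 26453 and 27509 in the wounded cortical ones. The cortical libraries thus lay close together and below every total library, while wounded total replicates 2 and 3 were the highest. In bulk samples like these, fewer cells with a message and less of it per cell cannot be told apart.

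**Figure D1:**
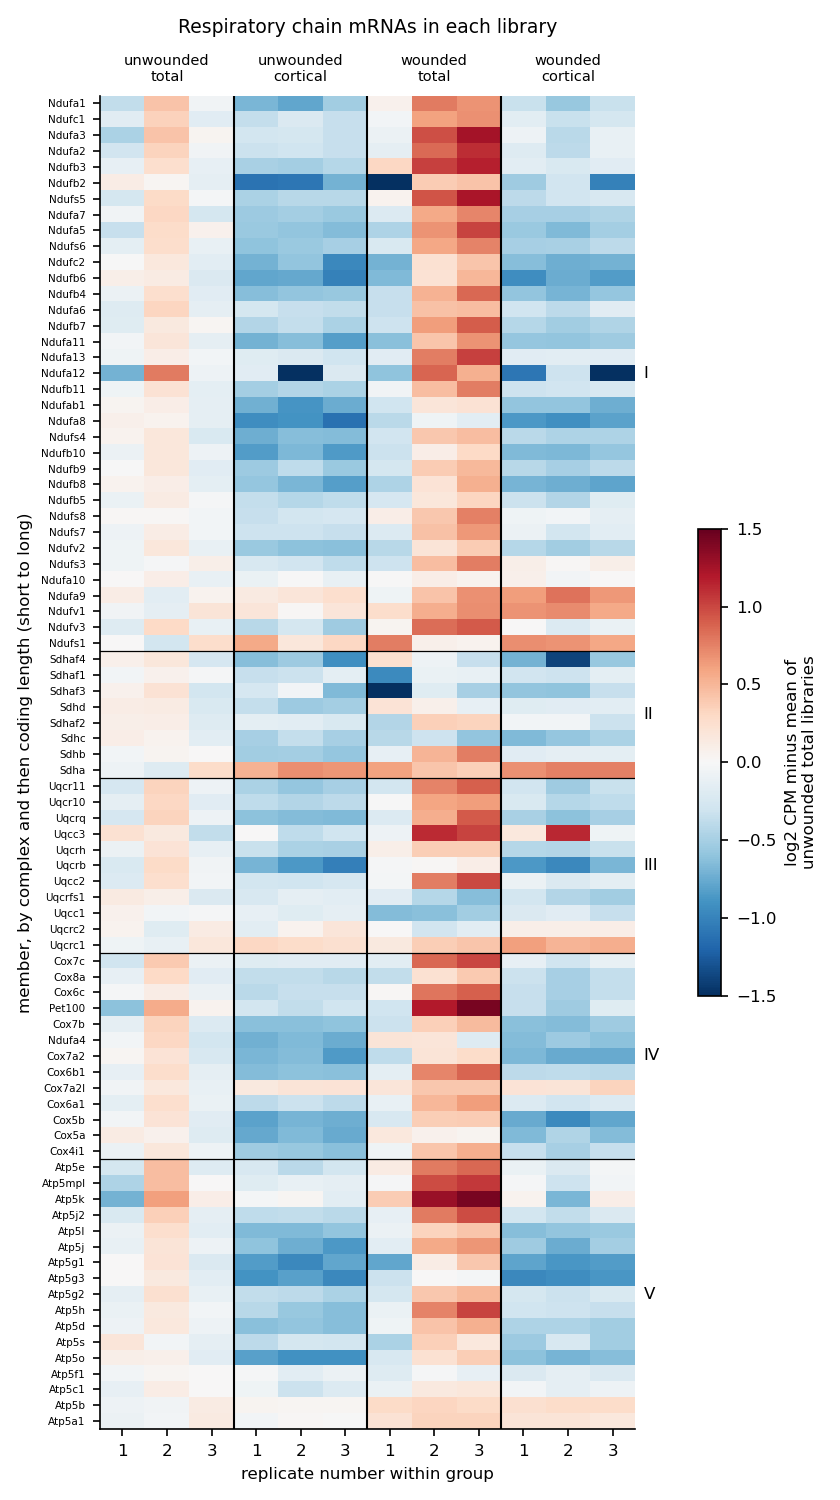
Log2 CPM of 84 tested members (rows, by complex and then from short to long coding length) in the 12 libraries (columns), minus the member's mean over the 3 unwounded total libraries; values beyond 1.5 are drawn at the end of the colour scale. Most rows are blue in both cortical groups and red in wounded total replicates 2 and 3, and several of the longest members are red in the cortical groups.

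In unwounded cells, 32 of the 86 tested respiratory chain messages were called lower in the cortical than in the total fraction, and 52 were not called. With edgeR's quasi-likelihood test, adjusted over all genes, 32 members were lower and 2 were higher, beside 7.59% of the 13571 tested genes called lower and 6.62% called higher. The median log2 fold change was -0.43, against 0.00 over all tested genes. All 3 cortical libraries lay below all 3 total libraries for 61 members, beside 19.1% of all tested genes. Without TMM factors (library size alone) the median of all genes moved to 0.19 and that of the members to -0.23, with 5 members higher and 26 lower. Without wounded total replicate 1, which enters this comparison only through the shared spread, 58 members were lower, beside 12.3% of all genes.

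Complex I had 12 lower and 1 higher of 36 members. Ndufa8, an accessory subunit facing the intermembrane space (ENSMUSG00000026895, mm10 chromosome 2, 36036326 to 36049406), had the largest decrease called in any complex. It was at 251, 246 and 216 CPM in the total libraries and 124, 128 and 109 in the cortical ones. The groups did not overlap, and the log2 fold change was -0.98 (SE 0.11, adjusted p = 4.98e-05). Ndufb6 and Ndufb10, of the membrane arm, fell by 0.86 and 0.79 on the log2 scale (adjusted p = 0.00902 and 0.00117). Ndufab1, the mitochondrial acyl carrier protein, which also serves fatty acid synthesis, fell by 0.79 (adjusted p = 7.70e-04). Ndufb6 lost its call without unwounded cortical replicate 3 (adjusted p = 0.0533).

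Complex II, succinate dehydrogenase, split between its subunits. Sdha, the flavoprotein that oxidises succinate (ENSMUSG00000021577, chromosome 13, 74322254 to 74350280), was at 65.2, 60.5 and 83.1 CPM in the total libraries and 98.8, 112 and 109 in the cortical ones. Every cortical library was above every total library, and the log2 fold change was 0.61 (SE 0.12, adjusted p = 0.00278). The iron-sulfur subunit Sdhb and the membrane anchors Sdhc and Sdhd fell by 0.54, 0.45 and 0.48 on the log2 scale (adjusted p = 0.0274, 0.00898 and 0.0107). Sdhb lost its call when any 1 of the 6 unwounded libraries was left out (adjusted p up to 0.0995), Sdhc without unwounded total replicate 1, and Sdhd without unwounded total replicate 1 or 2 or unwounded cortical replicate 2 (adjusted p of 0.0543 to 0.0710). With the coding length trend removed, as described below, the adjusted p of Sdhb, Sdhc and Sdhd was 0.0545, 0.584 and 0.637. The assembly factor Sdhaf4 also fell (log2 fold change -0.70, adjusted p = 0.0472), a call lost when any 1 of 7 libraries was left out (adjusted p up to 0.208), while Sdhaf1, Sdhaf2 and Sdhaf3 had log2 fold changes of -0.27, -0.18 and -0.31 and were not called.

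Complex III had 3 of 11 members lower, all small subunits. Uqcrb was at 109, 155 and 122 CPM in the total libraries and 78.3, 70.2 and 62.4 in the cortical ones (log2 fold change -0.87, SE 0.13, adjusted p = 4.59e-04). The groups did not overlap. Uqcrq and the hinge protein Uqcrh fell by 0.66 and 0.44 on the log2 scale (adjusted p = 0.0372 and 0.0153). Both calls were lost without unwounded total replicate 2 (adjusted p = 0.219 and 0.114) or without unwounded cortical replicate 2 or 3, and that of Uqcrq also without unwounded total replicate 3, unwounded cortical replicate 1 or any 1 wounded cortical library. The long core proteins Uqcrc1 and Uqcrc2 had log2 fold changes of 0.27 (SE 0.11) and 0.03 (SE 0.11), and the Rieske iron-sulfur protein Uqcrfs1 -0.19 (SE 0.13). None of those 3 was called.

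Complex IV had 7 of 14 tested members lower, and complex V 6 of 17. Cox5a and Cox5b, which sit against the mitochondrially encoded core of complex IV, fell by 0.74 and 0.75 (adjusted p = 3.46e-04 and 0.00289). Cox7a2 and Ndufa4 each fell by 0.73 (adjusted p = 0.00380 and 0.00240). In complex V the largest decreases were in the genes for the proton-carrying c ring and the stalk. Atp5g3, for subunit c, was at 519, 572 and 460 CPM in the total libraries and 276, 294 and 264 in the cortical ones, which did not overlap (log2 fold change -0.90, SE 0.11, adjusted p = 1.61e-04). Atp5g1, another gene for subunit c, fell by 0.87 (adjusted p = 0.00836), and Atp5o, the protein that ties the catalytic head to the outer stalk, by 0.88 (adjusted p = 5.09e-04). Atp5a1 and Atp5b, of the catalytic head, had log2 fold changes of -0.01 (SE 0.10) and 0.03 (SE 0.09) and were not called.

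**Figure D2:**
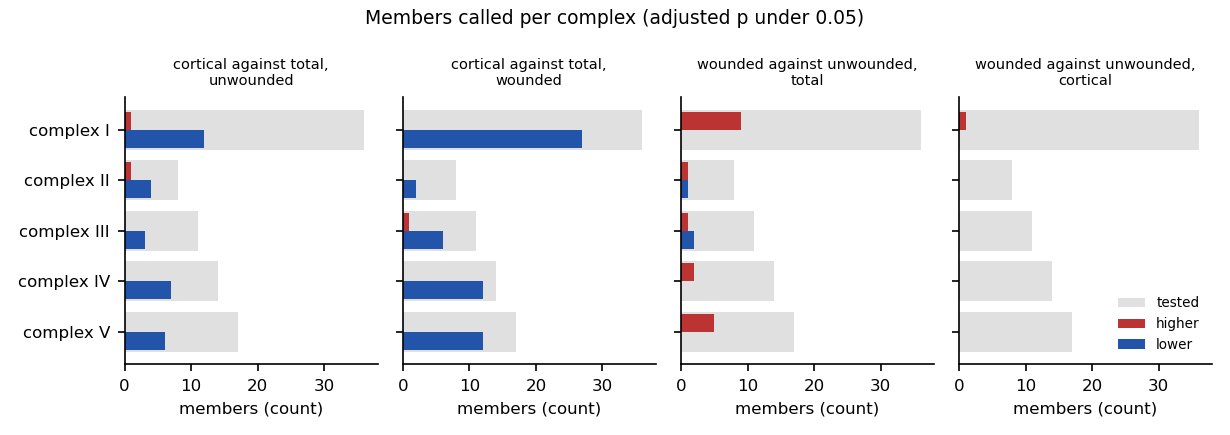
Members with an adjusted p under 0.05 in each complex (higher in red, lower in blue) in front of the number tested (grey), for 4 comparisons. Members lower in the cortical fraction occur in all 5 complexes in both states of the culture, with 27 of 36 in complex I after wounding.

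Most members were lower in the cortical fraction of wounded cells. In the wounded cultures 59 of 86 members were lower in the cortical fraction and 1 was higher, beside 8.03% of all tested genes called lower and 7.62% called higher. The median log2 fold change was -0.72, against 0.04 over all tested genes. The libraries of the fractions did not overlap for 50 lower members, beside 12.9% of all genes. Without wounded total replicate 1, 65 members were lower, beside 12.6% of all genes, and the median was -0.90. With library size alone the median of all genes was 0.25 and that of the members -0.48, with 6 members higher and 52 lower. Leaving out wounded cortical replicate 2 gave 38 lower members, beside 4.38% of all genes. In both states 30 members were lower, which is 30 of the 32 in unwounded and 30 of the 59 in wounded cells.

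The members with the largest decreases were mostly short accessory subunits. Atp5k (ENSMUSG00000050856, chromosome 5, 108433244 to 108434448) was at 171, 322 and 353 CPM in the wounded total libraries and 137, 81.8 and 141 in the wounded cortical ones. The groups did not overlap, and replicate 1 was the lowest total library. The log2 fold change was -1.23 (SE 0.29, adjusted p = 0.00863), and -1.49 without wounded total replicate 1. Leaving out wounded cortical replicate 2 gave -1.02 with an adjusted p of 0.0529. Pet100, a small protein needed for building complex IV (chromosome 8, 3621548 to 3625848), was at 36, 101 and 120 CPM in the total libraries and 35, 30.8 and 39.3 in the cortical ones. Here replicate 1 of the total group overlapped the cortical range. Its log2 fold change was -1.29 (SE 0.32, adjusted p = 0.0125), -1.66 without that library. Leaving out wounded total replicate 3 or wounded cortical replicate 2 took its adjusted p to 0.0542 and 0.0595.

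In complex I the largest decreases called were in Ndufs5, Ndufa5, Ndufb3 and Ndufb4, at -1.12, -1.11, -1.07 and -1.05 on the log2 scale (SE 0.17 to 0.25, highest adjusted p = 0.00679). These were, without wounded total replicate 1, at -1.40, -1.43, -1.29 and -1.33. Ndufs5 was at 299, 553 and 674 CPM in the total libraries and 220, 236 and 244 in the cortical ones, with no overlap. In complex III the small subunits Uqcrq, Uqcr11 and Uqcrb fell by 1.03, 0.92 and 0.87, and the assembly factor Uqcc2 by 0.79. In complex IV, Cox5b fell by 1.03 and Cox6c by 1.02, and Cox6b1, which lies at the contact of the complex IV dimer, by 0.94. Cox6c was at 781, 1343 and 1432 CPM in the total libraries and 608, 543 and 601 in the cortical ones, without overlap. In complex V the outer stalk subunits Atp5j and Atp5h fell by 0.99 and 0.94 and the membrane subunit Atp5j2 by 0.90. The adjusted p of each of these 10 genes of complexes III to V was at most 0.00932. Their log2 fold changes without wounded total replicate 1 ran from -1.28 in Uqcrq to -0.90 in Uqcrb, with Cox6c at -1.25. Uqcr11 lost its call without wounded cortical replicate 2 (adjusted p = 0.0515). The short Uqcr10 was at 265, 400 and 409 CPM in the total libraries and 226, 197 and 203 in the cortical ones. It was called lower, also in all 27 alternatives (log2 fold change -0.96 to -0.29). Cox7c, at 903, 1827 and 2011 CPM in the total and 924, 817 and 930 in the cortical libraries, was called lower with overlap. Neither Uqcr10 nor Cox7c was called in the other comparisons.

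Among the core subunits, a list that holds the cofactor-binding and catalytic nuclear subunits and also structural ones such as Cox4i1 and Atp5o, calls were divided. Of 23 tested, 10 were lower in the wounded cortical fraction and 0 higher (median -0.23), beside 8.03% and 7.62% of all genes. In unwounded cells 9 were lower and 2 higher (median -0.30), beside 7.59% and 6.62%. With wounded total replicate 1 left out, 11 were lower and 3 higher in wounded cells (median -0.24). Beside them, 12.6% of all genes were lower and 1697 of 14073 higher. In unwounded cells 12 were then lower and 4 higher, beside 12.3% lower and 1415 of 14073 higher. The 2 higher in unwounded cells and the 3 higher in wounded cells were thus close to the background. In wounded cells the lower ones included the iron-sulfur subunits Ndufs7, Ndufs8 and Ndufv2 of complex I (-0.51, -0.52 and -0.55), Sdhb, Cox4i1 (-0.72), Atp5d (-0.80) and Atp5o (-0.79). The calls of Ndufs7, Ndufs8, Ndufv2 and Sdhb were lost without wounded total replicate 3 (adjusted p of 0.0570 to 0.160), and each of them without wounded cortical replicate 3 as well. Of the 12 omissions of a library, the call was kept in only 4 for Ndufs7, in 7 each for Ndufv2 and Sdhb, and in 10 for Ndufs8. Ndufv1, which binds NADH, had a log2 fold change of 0.14 (SE 0.12), Ndufs1 of 0.32 (SE 0.18) and Ndufs3 of -0.31 (SE 0.18). Sdha was at 0.27 (SE 0.12), Sdhc at -0.14 (SE 0.11) and Sdhd at -0.23 (SE 0.12). Uqcrc1 and Uqcrc2 were at 0.24 and 0.23 (SE 0.11 each), Atp5a1 at -0.11 (SE 0.10), Atp5b at -0.04 (SE 0.09), Atp5c1 at -0.16 (SE 0.11) and Uqcrfs1 at -0.01 (SE 0.13). None of these 12 reached the threshold. Leaving out wounded total replicate 1 brought 4 of them past it: Ndufs3 at -0.56, Ndufs1 at 0.59, Sdha at 0.34 and Uqcrc2 at 0.31 (highest adjusted p = 0.0367). Ndufs1 overlaps Eef1b2 on the other strand, and in these non-directional libraries strand cannot separate reads from the stretch they share.

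The member called higher in the wounded cortical fraction was Uqcc1, an assembly factor for cytochrome b (ENSMUSG00000005882, chromosome 2, 155846894 to 155930310). It was at 25.2, 25.6 and 27.6 CPM in the total libraries and 34.2, 35.2 and 31.2 in the cortical ones, without overlap. The log2 fold change was 0.36 (SE 0.11, adjusted p = 0.0407). That call was lost whichever of the 12 libraries was left out, with an adjusted p of up to 0.141.

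**Figure D3:**
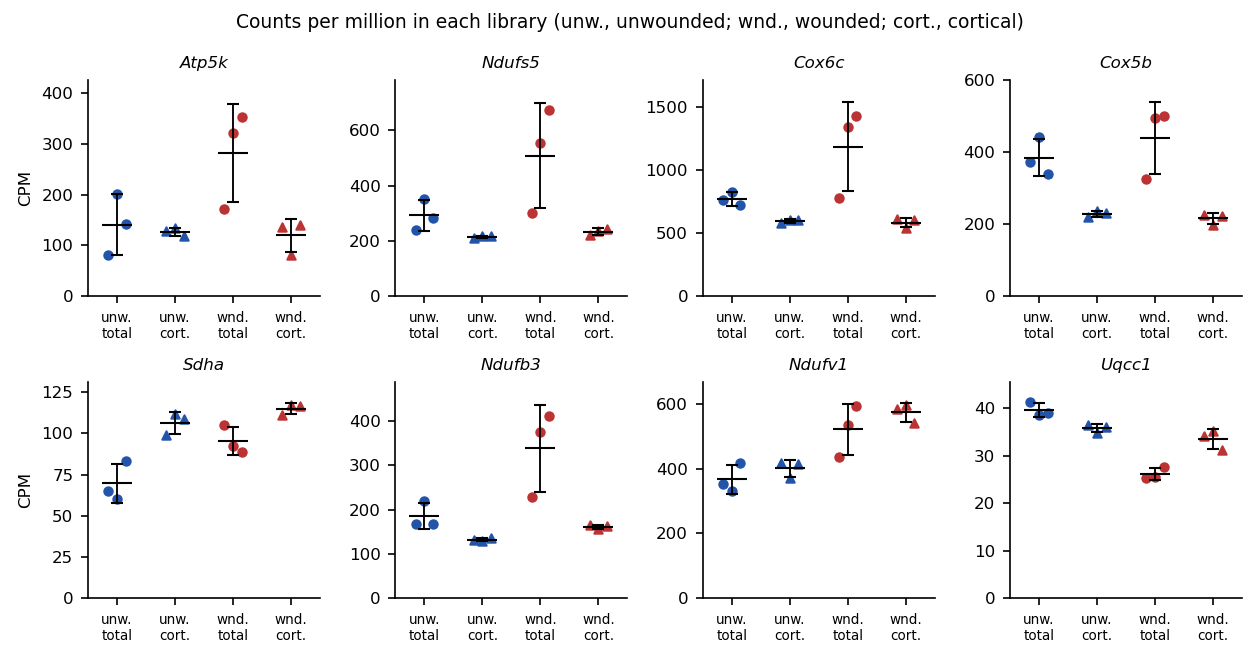
CPM of 8 members in each library (points, circles for total and triangles for cortical, blue unwounded and red wounded), with the mean and SD of the 3 libraries in black. Atp5k, Ndufs5 and Cox6c are highest in wounded total replicates 2 and 3, Cox5b is lower in every cortical library than in every total library, and Sdha and Ndufb3 are lower in every unwounded total library than in every wounded total library.

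Coding length moved with the cortical-to-total difference. Across the 86 tested members, the Spearman correlation between coding length and log2 fold change was 0.27 in unwounded cells and 0.64 in wounded cells, and it was the same to 2 decimals without wounded total replicate 1. These are descriptions across genes, which share libraries and are not independent replicates. Of the 11 members over 1000 bases, 0 were lower and 2 higher in unwounded cells (median 0.13), and 1 was lower in wounded cells (median 0.14). That one was Ndufv3, named after its values were seen, whose log2 fold change was -0.75 (SE 0.18, adjusted p = 0.0116). Of the 22 members with up to 300 coding bases, 7 were lower in unwounded cells (median -0.39) and 20 in wounded cells (median -0.88, or -1.13 without wounded total replicate 1, with 20 lower). The 42 members of 301 to 600 bases had 22 lower in unwounded cells (median -0.60) and 33 in wounded cells (median -0.79). Of all tested genes, 7.59% were lower in unwounded cells and 8.03% in wounded cells. In unwounded cells the shortest members thus did not show the largest median decrease.

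**Figure D4:**
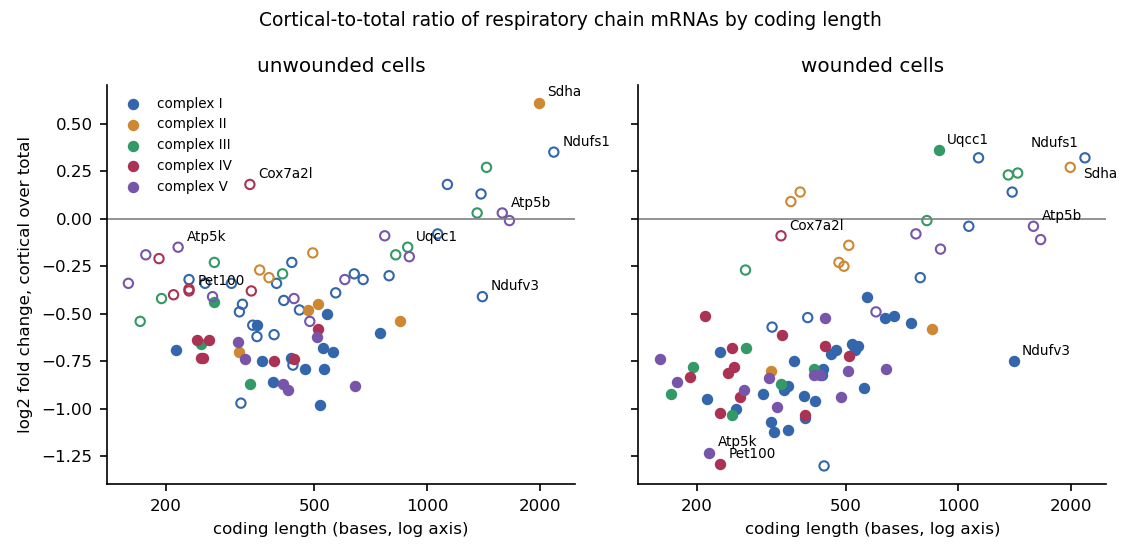
Log2 fold change of cortical over total against coding length on a log axis for 84 tested members in unwounded and wounded cells, coloured by complex, with filled points for an adjusted p under 0.05. Of the members over 1000 bases Ndufv3 lies lowest, at -0.41 and -0.75, and in wounded cells the members under 600 bases reach down to -1.30.

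The same comparisons were therefore repeated with a trend on coding length, fitted over all genes, removed from each library. In unwounded cells 15 members were then called lower and 3 higher, beside 4.29% and 5.38% of the 11478 genes tested, and the median was -0.08 against 0.02 over all genes. In wounded cells 50 were lower and 2 higher, beside 7.48% and 3.1%, and the median was -0.39 against -0.04. The members called lower in unwounded cells after this correction included Ndufa8 (-0.65), Atp5o (-0.62), Atp5g3 (-0.52), Ndufb10 (-0.47) and Uqcrb (-0.47). Sdha stayed higher at 0.50 (adjusted p = 0.00569). Cox7a2l, a factor that joins complexes III and IV into supercomplexes, was called higher after the correction, at 0.57 in unwounded and 0.28 in wounded cells, with uncorrected values of 0.18 and -0.09. Its coding length is 336 bases. With wounded total replicate 1 left out as well, 30 members were lower in unwounded and 58 in wounded cells, beside 8.08% and 11% of the 11706 genes then tested.

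In the total fraction more members were higher than lower after wounding. Of 86 members 18 were higher in wounded than in unwounded cells and 3 were lower, beside 8.39% of all tested genes called higher and 7.2% called lower. The median log2 fold change was 0.30, against -0.03 over all genes. The 3 wounded libraries all lay above the 3 unwounded ones for only 8 members, beside 14.5% of all genes. Without wounded total replicate 1, 59 members were higher, beside 13.4% of all genes, and the median was 0.44. Leaving out unwounded total replicate 1 gave 2 higher and 1 lower, beside 4.25% and 3.74% of all genes. Leaving out unwounded total replicate 3 or wounded total replicate 2 or 3 gave 7, 5 and 3 higher, beside 5.96%, 5.28% and 5.07%. Without unwounded total replicate 1 or wounded total replicate 3, the share of members called higher was thus below that of all genes. With any 1 cortical library left out, 13 or 14 members were called in place of 21. The number was 13 without wounded cortical replicate 1 or 3, beside 13.6% and 13.5% of all genes called in either direction. The share of members called was then close to that of all genes. With the coding length trend removed, 43 members were higher and 3 lower, beside 16.3% and 6.84% of all genes.

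Ndufb3, of the membrane arm of complex I (chromosome 1, 58586384 to 58595964), rose without overlap. Its unwounded total libraries were at 168, 219 and 169 CPM and its wounded ones at 227, 375 and 411. The log2 fold change was 0.87 (SE 0.17, adjusted p = 0.00218), and it was called in every one of 27 alternative analyses. Atp5k had the largest called change, from 80.2, 201 and 141 CPM to 171, 322 and 353, and there the groups overlapped (log2 fold change 1.00, SE 0.29, adjusted p = 0.0246). Its call was lost without unwounded total replicate 1 or 3 or wounded total replicate 2 or 3 (adjusted p of 0.0732 to 0.107). Ndufs5 rose by 0.80, Ndufa3 by 0.77, Ndufa2 by 0.67, Atp5mpl by 0.70, Cox6c by 0.62, Atp5h by 0.62, Uqcc2 by 0.63 and Atp5e by 0.58 on the log2 scale. In these 8 genes wounded total replicate 1 overlapped the unwounded libraries. Their adjusted p ranged up to 0.0499, and each was lost without unwounded total replicate 1 (adjusted p of 0.0586 to 0.216) or wounded total replicate 3 (adjusted p of 0.0741 to 0.228). The calls of Ndufa3, Ndufa2, Atp5mpl and Atp5e were lost in 10 of the 12 omissions of a library and that of Atp5h in 7. All 8 genes were called without wounded total replicate 1, with log2 fold changes from 0.78 in Atp5e to 1.07 in Ndufs5 and Ndufa3.

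Of the 23 core subunits tested, 6 rose and 2 fell in the total fraction, with a median of 0.31. Of all tested genes, 8.39% were called higher and 7.2% lower, so the 2 that fell were close to that share. Without wounded total replicate 1, 16 rose and 2 fell, beside 13.4% of all genes called higher and 1615 of 14073 called lower. Ndufv1 went from 352, 332 and 418 CPM to 437, 534 and 592, without overlap (log2 fold change 0.51, SE 0.12, adjusted p = 0.0112). Sdha rose by 0.45 (adjusted p = 0.0163), Ndufs8 by 0.45 (adjusted p = 0.0262) and Atp5b by 0.29 (adjusted p = 0.0426). Cox7a2l, which is not a core subunit, rose by 0.33 (adjusted p = 0.0389). Leaving out unwounded total replicate 1 ended the calls of Ndufv1, Sdha, Ndufs8, Atp5b and Cox7a2l (adjusted p of 0.0567 to 0.173), and those of Atp5b and Cox7a2l were kept in only 2 of the 12 omissions of a library. Atp5a1 had a log2 fold change of 0.29 (SE 0.10, adjusted p = 0.0560), with no overlap between its groups. Of the 11 members over 1000 bases, 5 were called higher with a median of 0.32, and the 22 shortest had 6 called and a median of 0.53. The share of all tested genes called higher was 8.39%. The 22 shortest had median log2 differences of -0.20, 0.34 and -0.12 from the group mean in unwounded total replicates 1 to 3, and -0.10, 0.76 and 0.90 in the wounded ones. With the coding length trend removed, 15 of the 22 shortest were called higher, with a median of 0.41, beside 16.3% of all genes.

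The 3 members that fell in the total fraction were Uqcc1, Sdhc and Uqcrfs1. Uqcc1 went from 41.3, 38.6 and 38.9 CPM to 25.2, 25.6 and 27.6, without overlap (log2 fold change -0.60, SE 0.11, adjusted p = 0.00192), and it was called in all 27 alternatives. Sdhc (chromosome 1, 171127165 to 171150603) went from 210, 203 and 175 CPM to 146, 158 and 130, also without overlap (-0.44, SE 0.11, adjusted p = 0.0108). Without unwounded total replicate 1 its adjusted p was 0.0593. Uqcrfs1 went from 152, 146 and 118 CPM to 122, 102 and 88.5, with overlap (-0.41, SE 0.13, adjusted p = 0.0356), and it was called in 16 of 27 alternatives. It lost its call without unwounded total replicate 1 or 2 or wounded total replicate 2 or 3 (adjusted p up to 0.163).

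In the cortical fraction few members were called after wounding. Of 86 members 1 was higher and 0 lower, beside 1.6% and 0.884% of all tested genes. An unadjusted p under 0.05 was found for 7 members, beside 2341 of all 13571 genes, so the share of members was below that of all genes. The median was 0.10, against 0.02 over all genes. DESeq2 called 2 members, both higher, beside 394 of all 13571 genes called higher, so the share of members was again below that of all genes. The wounded cortical libraries all lay above the unwounded ones for 32 members, beside 15.4% of all genes. The member called was Ndufv1 (ENSMUSG00000037916, chromosome 19, 4007497 to 4012806), at 416, 371 and 415 CPM in unwounded and 583, 597 and 542 in wounded cortical libraries (log2 fold change 0.52, SE 0.12, adjusted p = 0.0344). Leaving out any 1 of the 6 cortical libraries, unwounded total replicate 1 or wounded total replicate 2 took its adjusted p to between 0.0599 and 0.153. Members over 1000 bases had a median of 0.23 in this comparison and those up to 300 bases a median of 0.05. Without wounded total replicate 1, 6 members were higher, beside 5.47% of all genes: Ndufs3, Ndufa9, Ndufv1, Sdhb, Sdhd and Uqcrc1.

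**Figure D5:**
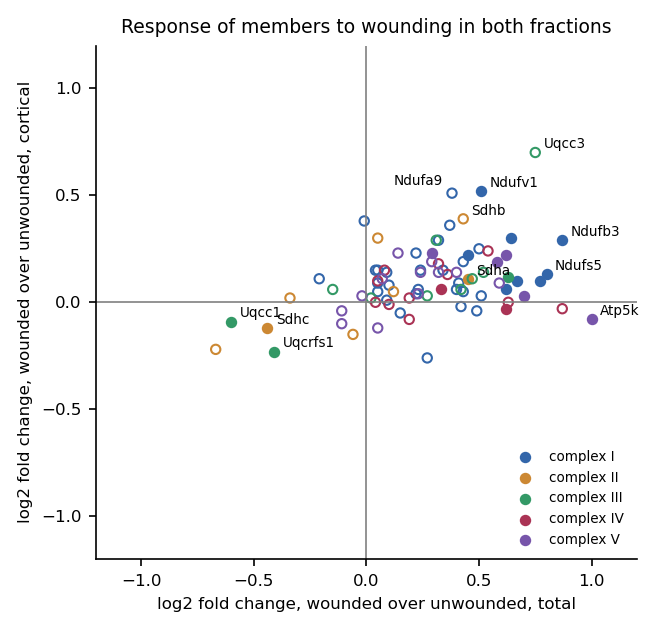
Log2 fold change of wounded over unwounded in the total fraction (horizontal) and in the cortical fraction (vertical) for 84 tested members, coloured by complex, with filled points for an adjusted p under 0.05 in the total fraction. Points spread from -0.67 to 1.00 horizontally, and Ndufv1, the member called in both fractions, is at 0.51 and 0.52.

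The change of the cortical-to-total difference with wounding was tested as an interaction. None of the 86 members was called in that test, beside 0.125% of all tested genes. An unadjusted p under 0.05 was found for 5 members, beside 1228 of all 13571 genes. The share of members was thus below that of all genes. Those 5, named after their values were seen, were Atp5k (-1.09, SE 0.40), Ndufs5 (-0.67, SE 0.29), Cox6c (-0.65, SE 0.23), Ndufb3 (-0.58, SE 0.23) and Uqcc1 (0.51, SE 0.16), with an adjusted p of at least 0.354. DESeq2 also called 0, beside 72 of all 13571 genes. Without wounded total replicate 1 21 members were called, all with a more negative ratio after wounding, beside 1.88% of all genes. They included Cox6c (-0.88, adjusted p = 1.71e-04), Ndufa13 (-0.84), Ndufs5 (-0.94), Cox7c (-0.90), Atp5k (-1.35) and Pet100 (-1.27). None of the 21 had more than 600 coding bases.

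Messages of the same complexes that are encoded in mitochondrial DNA were mostly lower in the total fraction after wounding. Of 13 such mRNAs, 10 were lower in the wounded than in the unwounded total fraction and 0 higher. Of all tested genes, 7.2% were called lower and 8.39% higher. The median log2 fold change of the 13 was -1.34. Without wounded total replicate 1 the number lower was 11, with a median of -1.21, beside 1615 of all 14073 genes. mt-Nd5, a proton-pumping subunit of complex I, fell from 4759 ± 613 CPM to 1672 ± 204 (SD, n = 3, log2 fold change -1.51, adjusted p = 6.66e-07). mt-Atp6 fell by 2.36. mt-Nd4l, at a mean of only 6.49 CPM in the unwounded total libraries, fell by 2.74. In the cortical-to-total comparison 10 of 13 were lower in unwounded cells (median -1.19) and 6 in wounded cells (median -0.58). Of all genes, 7.59% and 8.03% were lower. Without that library 9 were lower in wounded cells (median -0.94), beside 12.6% of all genes. mt-Co1, named after its values were seen, was then higher (0.70, adjusted p = 7.71e-05). In the wounded cortical fraction 3 were lower than in the unwounded one, beside 0.884% of all genes. These were mt-Co1, mt-Cytb and mt-Nd4, by 0.81, 0.69 and 0.64. The number was 7 without wounded total replicate 1, beside 506 of all 14073 genes.

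Among the partners of the complexes, Cycs, the electron carrier cytochrome c, was lower in the cortical fraction in both states. It was at 694 ± 105 CPM in the unwounded total and 348 ± 19.6 in the unwounded cortical group (log2 fold change -1.0, adjusted p = 3.29e-04), and at -0.81 in wounded cells (adjusted p = 0.00150). Cyc1, cytochrome c1 of complex III, was lower in the unwounded cortical fraction (-0.33, adjusted p = 0.0253). Of 39 tested assembly factors outside the naming rule, 2 were lower and 2 higher in the unwounded cortical fraction, and 4 lower and 1 higher in the wounded one, beside 7.59% and 6.62% of all genes in unwounded and 8.03% and 7.62% in wounded cells. These counts of factors were thus close to or below the background. Leaving out wounded total replicate 1 gave 8 lower and 3 higher in unwounded cells, and 12 lower and 2 higher in wounded cells, beside 12.3% and 12.6% of all genes called lower. The short Cox14 was lower in both (-0.67 and -0.91) and the long Lrpprc, which stabilises mitochondrial mRNAs, was higher in both (0.80 and 0.68). On wounding 5 of these factors fell in the total fraction, among them Cox17 (-0.87), Lyrm7 (-0.78) and Cox19 (-0.65), and Ndufaf2 rose by 0.88, beside 7.2% of all genes called lower and 8.39% called higher. With wounded total replicate 1 left out, Cox17, Lyrm7, Cox19 and Ndufaf2 were at -0.96, -0.96, -0.62 and 0.89.

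Enzymes of the tricarboxylic acid cycle supply the chain with NADH and succinate. Of 14, 0 were lower or higher in the unwounded cortical fraction by edgeR. An unadjusted p under 0.05 was found for 6, beside 3616 of all 13571 genes. In the wounded cortical fraction 1 was lower and 1 higher, beside 8.03% and 7.62% of all genes. In the total fraction 3 rose and 1 fell on wounding, beside 8.39% and 7.2% of all genes. The counts in the wounded cortical fraction and the 1 that fell were thus close to the background. Mdh2, malate dehydrogenase, rose in the total fraction from 1707 ± 54.8 to 2568 ± 308 CPM (log2 fold change 0.59, adjusted p = 0.00113) and in the cortical fraction by 0.42 (adjusted p = 0.0391). The rise of Mdh2 in the total fraction was 0.68 without wounded total replicate 1. Fh1 and Cs rose by 0.42 and 0.31 in the total fraction, and Idh3a fell by 0.73. Among 11 regulators of respiratory genes, 3 were higher in the unwounded cortical fraction, beside 6.62% of all genes. The largest change was in Pprc1, a coactivator of the PGC-1 family with a coding length of 4935 bases (log2 fold change 1.48, adjusted p = 5.01e-06). On wounding Esrra, Gabpb1 and Pprc1 fell in the total fraction by 0.61, 0.67 and 0.48, and Pprc1 fell in the cortical fraction by 0.65.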

How the data were processed

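The authors deposited raw fragment counts per gene, 1 column per library, and FPKM values, which equal the deposited counts divided by merged exon length and by a library size of 0.825 to 1.10 times the column total. Per the submitters' processing notes, CASAVA, HISAT2 and mm10 were used; the counting tool and annotation release are not given in the sources used here. Per the labels' protocols, mRNA was selected with poly-T beads and libraries were non-directional. Of 54532 gene identifiers, 54495 were in GENCODE M21, 98.3% of them at identical positions and strand, so coding lengths and sequences came from M21 (1 transcript a gene, 92 of 93 members).

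Counts were fitted in R 4.3.3 with edgeR 4.0.16 (filterByExpr, TMM factors of 0.831 to 1.10, quasi-likelihood F test, two-sided, 1 mean per group, all 12 libraries), which left 13571 genes. P-values were adjusted by Benjamini-Hochberg over all genes of a comparison, with a threshold of 0.05. SE denotes the fitted standard error of a log2 value. Alternatives used DESeq2 1.42.0, limma 3.58.1 on log2 of FPKM plus 1 or 0.1, voom quality weights, other scalings and filters, length trends (loess, span 0.5) and leaving out each library. Removing the coding length trend was added after seeing the data. In simulated counts for the unwounded comparison (13227 genes, 200 changed), edgeR recovered 50% of log2 changes of 1 and 83% of changes of 2, with 5% of its calls false. A simulated coding length bias gave 1617 false calls (13219 genes), and 8 after the trend was removed (11298 genes). That bias was a smooth function of coding length, equal in all unwounded cortical libraries, so a smooth trend could be expected to remove it. The simulation held no deviating library and no wounded comparison. It therefore does not show how well the correction works on these data. Figures used python 3.11.15 and matplotlib 3.10.9.

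The members and lists were chosen with earlier results of these data known. Genes named with values were up to 4 called members of the largest change in each direction per complex and comparison with a mean of at least 100 counts, the core subunits, the 5 shortest and 5 longest tested members, Atp5k and Pet100, and up to 3 called genes of each other list and comparison. Cox8a, Cox6a1, Ndufb2, Ndufa12, Ndufv3, Ndufa9, Ndufa13 and the isoforms at or near 0 were named after their values were seen. Of the 86 tested members, 20 overlapped another tested gene, 19 of them one on the other strand. The values of 1 further member are not reported here; it stays in the counts and medians and is not drawn.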

Additional observations from a re-analysis of the deposited data

How the results depend on the processing

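The number of members called is 34, 60, 21, 1 and 0 for cortical against total in unwounded and in wounded cells, wounded against unwounded in the total and in the cortical fraction, and the interaction. Leaving out 1 library at a time gave 18 to 62, 38 to 68, 3 to 62, 0 to 6 and 0 to 21. The numbers of all genes called were then 949 to 3151, 1084 to 3475, 1128 to 3502, 108 to 1276 and 4 to 413. In unwounded cells 57 members were called with voom quality weights, beside 3708 of all 13571 genes, and 53 without a filter, beside 2194 of 21619. With only the groups compared there were 56, beside 3014 of 12693, and with the coding length trend removed 18, beside 1110 of 11478. In wounded cells 38 members were called with only the groups compared, beside 970 of all 12657 genes. Wounding in the total fraction gave 34 with DESeq2 and 66 with voom, beside 2601 and 5206 of all 13571 genes. It gave 12 on log2 FPKM with either pseudocount, beside 1934 and 1918, a share close to that of all genes. Without a filter it gave 40, beside 2391 of 21619. With only the groups compared it gave 2, beside 1175 of 12706, a share below that of all genes. With the gene length trend removed it gave 47, beside 2589 (46 with the replicate block as well, beside 2479). With the coding length trend removed it gave 46, beside 2658 of 11478. With 1 library left out as well it gave 58, beside 3616 of 11706. Wounding in the cortical fraction gave 2 with DESeq2 and 7 with voom, beside 736 and 1316 of all 13571 genes. On log2 FPKM it gave 0, beside 299 and 267. It gave 2 without a filter, beside 559 of 21619, and 15 with only the groups compared, beside 1423 of 12599. With the gene length trend removed it gave 2, beside 465 (2 with the replicate block, beside 406). With the coding length trend removed it gave 3, beside 627 of 11478. With 1 library left out as well it gave 12, beside 1724 of 11706. Apart from the count with only the groups compared, these shares were close to or below those of all genes. The interaction gave 31 with voom, beside 855 of all 13571 genes, and 6 without a filter, beside 138 of 21619. With the coding length trend removed it gave 1, beside 56 of 11478. With 1 library left out as well it gave 29, beside 724 of 11706. The cause of these differences was not tested.

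Of 74 called gene-by-comparison values of the members covered by the naming rule, 0 changed sign in any of 27 alternatives. Of the 1998 values these alternatives gave, 323 were no longer called. The alternatives refit the same counts and most of the 74 were picked for large called changes, so a kept sign is no independent support. Sdhd, not called in wounded cells (log2 fold change -0.23), was 0.24 with an adjusted p of 0.0435 once the coding length trend and wounded total replicate 1 were removed together. Library size alone moved the split of all genes called in unwounded cells from 898 higher and 1030 lower to 1582 and 469, and in wounded cells from 1034 and 1090 to 2203 and 520.

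Same-numbered libraries were not shown to be paired: their deviations from group means correlated between -0.0508 and 0.219 across 10386 genes. With the replicate number as a block, 34, 58, 20, 1 and 0 members were called, beside 1857, 1985, 2038, 276 and 10 of all 13571 genes. With groups of 3 libraries, 50% of simulated log2 changes of 1 were recovered in the unwounded comparison, and levels near 0 counts, as in Cox7a1, carry no usable fold change.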

Other observations

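Ndufa12, an accessory subunit of complex I named after its values were seen, had a wide spread between libraries. It was at 152, 426 and 234 CPM in unwounded total libraries, 219, 43.9 and 213 in unwounded cortical, 163, 454 and 358 in wounded total and 117, 200 and 80.7 in wounded cortical. Its log2 fold change of -1.30 in wounded cells (SE 0.50) was not called (adjusted p = 0.0891). Ndufb2 was at 14.5, 56.4 and 58.7 CPM in the wounded total libraries, with replicate 1 the lowest of the 12.

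Promoter windows from RefSeq (GRCm38.p6, 250 bases before to 50 after the start) were found for 74 of the 86 tested members, in 79 windows. On either strand, the NRF1 core CGCATGCG was in 11.4% of them, against 1.87% of all 32851 windows and 3.98% of the 11632 windows of tested protein-coding genes. The ETS core CCGGAAG was in 25.3%, against 8.86% and 17.9%, and the YY1 core AAGATGGC in 13.9%, against 2.75% and 4.45%. These are letter matches in a window and were not related to the values above.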
